A study of Mus musculus with 7 samples.

Results

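The collagen genes of B16mhgp100 tumours were described, taken as every gene symbol made of Col, a number, the letter a and a further number. This gave 44 of the 28233 genes in the expression table: 11 fibrillar chains, 6 type IV chains of the basement membrane and 27 other collagens. B16mhgp100 is a derivative of the mouse B16 melanoma line, and bulk poly-A RNA was sequenced from 7 subcutaneous tumours of it in C57BL/6 hosts. The line over-expressed Cr1l, the gene of the mouse complement regulator Crry, in 4 tumours (Cr1l 1, Cr1l 2, Cr1l 3 and Cr1l 4) and carried the vector in 3 (Vec 5, Vec 6 and Vec 7). Every mouse of both groups received anti-PD1 antibody at 200 µg a dose, in 4 doses at 2 a week from day 10 after inoculation, and tumours were collected 1 day after the last dose. No tumour without the antibody was analysed here. The sources used here do not say whether each line was a clone or a pool, nor how old the mice were.

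Collagens are trimers of chains in which glycine opens each triplet of a long Gly-X-Y repeat, and this repeat lets the chains wind into a triple helix. Fibrillar collagens such as types I, III and V pack into the fibrils that give connective tissue its tensile strength, while type IV collagen forms the sheet-like network under epithelia and around vessels. The remaining collagens decorate fibrils, form beaded filaments (type VI), anchor the epidermis (types VII and XVII) or sit at basement membrane zones (types XV and XVIII). In tumours, fibroblasts are the main source of fibrillar collagen, and endothelial cells and pericytes are major sources of type IV.

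Expression was given as TPM, the abundance of a transcript per length, with tumour totals of 993520 to 996031. No read numbers are stated in the sources used here, so no counting error could be attached to a value. Cr1l stood at 76.37, 78.56, 77.91 and 83.57 TPM in Cr1l tumours, against 52.41, 46.29 and 54.94 TPM in Vec tumours. The groups did not overlap, in keeping with every label, and the log2 fold change (Cr1l minus Vec) was 0.62. The melanocyte markers of the tumour cells summed to 20406, 18950, 9173 and 10457 TPM in Cr1l tumours and 19237, 13349 and 20749 TPM in Vec tumours, so the labelled tumour type was present in each. They were lowest in Cr1l 3 and Cr1l 4, and the part of this in the collagen levels was not tested. Several tumours stood apart. Cr1l 3 and Cr1l 4 had 3440 and 2949 TPM of macrophage markers, against 353 and 544 TPM in Cr1l 1 and Cr1l 2 and 389 to 1061 TPM in Vec tumours, and the part of these cells in the collagen levels was not tested. Vec 6 held 848 TPM of keratinocyte markers and 1495 TPM of skeletal muscle markers, above every other tumour. Red cell markers summed to 106 to 387 TPM over Cr1l tumours, against 415, 41197 and 9667 TPM in Vec 5, Vec 6 and Vec 7, and the part of blood in the low collagen levels of Vec 6 and Vec 7 was not tested. Sample titles give Vec 6 and Vec 7 an extra number whose meaning is not stated, and class medians are also given without them. The p-values measure the spread between tumours, 1 library each.

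The structural difference between the classes can be read in the coding sequence. In the longest coding sequence of each gene (GENCODE M21), the longest unbroken run of Gly-X-Y triplets held 216 to 344 triplets in fibrillar chains (median 338), against 39 to 66 in type IV chains (median 43.5) and 23 to 113 in the other chains (median 45). Type IV chains were split into 22 to 27 runs of at least 5 triplets and fibrillar chains into 2 or 3. The pair below shows 90 coding bases of a fibrillar and of a type IV chain, with the glycine codons of the repeat in capitals. Col1a1 (chromosome 11) is shown over residues 660 to 689, inside its longest run, and Col4a1 (chromosome 8) over residues 726 to 755, where 2 extra residues interrupt the repeat and leave a wider gap between neighbouring capitals.
Col1a1: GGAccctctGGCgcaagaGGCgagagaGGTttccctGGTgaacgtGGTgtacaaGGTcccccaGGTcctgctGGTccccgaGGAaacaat
Col4a1: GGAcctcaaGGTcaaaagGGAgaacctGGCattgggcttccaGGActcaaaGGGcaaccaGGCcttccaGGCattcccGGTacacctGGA

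The upstream sequences of 3 genes are shown because their levels below behaved differently across the tumours: Col1a2 and Col3a1 varied most widely among the abundant chains, and Col16a1 least. They are the 250 bases before the RefSeq start in GRCm38.p6, an older build than the authors' own, at chr6:4505368-4505617 on the plus strand for Col1a2, chr1:45311288-45311537 on the plus strand for Col3a1 and chr4:130047590-130047839 on the plus strand for Col16a1. Capitals mark CCAAT and TATAAA, the short motifs of many promoters, searched on both strands with no overlap between them.
Col1a2: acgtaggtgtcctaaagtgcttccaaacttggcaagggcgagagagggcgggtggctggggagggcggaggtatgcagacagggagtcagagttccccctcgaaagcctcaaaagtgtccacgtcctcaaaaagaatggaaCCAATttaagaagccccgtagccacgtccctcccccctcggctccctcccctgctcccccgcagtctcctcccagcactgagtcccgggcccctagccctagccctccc
Col3a1: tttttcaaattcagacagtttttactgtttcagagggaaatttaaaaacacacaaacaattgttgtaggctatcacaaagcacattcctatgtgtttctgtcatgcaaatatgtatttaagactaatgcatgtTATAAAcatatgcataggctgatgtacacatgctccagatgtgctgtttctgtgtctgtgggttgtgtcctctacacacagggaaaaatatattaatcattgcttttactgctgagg
Col16a1: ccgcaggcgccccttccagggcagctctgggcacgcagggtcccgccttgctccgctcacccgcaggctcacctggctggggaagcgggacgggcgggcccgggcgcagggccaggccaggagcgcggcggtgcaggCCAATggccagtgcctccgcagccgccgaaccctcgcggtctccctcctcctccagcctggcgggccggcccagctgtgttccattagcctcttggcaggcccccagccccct
The windows were 62% G or C in Col1a2, 35.2% in Col3a1 and 75.6% in Col16a1, beside a median of 52.4% over the 32851 windows of all genes. CCAAT began 109 bases upstream of the start in Col1a2 and 113 bases upstream in Col16a1, and TATAAA 117 bases upstream in Col3a1. Of the 35 collagens with a listed promoter, 13 (37.1%) held CCAAT and 5 (14.3%) held TATAAA, against 37.5% and 14.3% of all 27025 genes. Collagen promoters thus held these letters about as often as promoters did in general.

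Collagen RNA varied widely between tumours of the same group. Summed over the 44 genes, collagens reached 1160, 1552, 7338 and 5225 TPM in Cr1l 1 to Cr1l 4, against 1740, 725 and 338 TPM in Vec 5, Vec 6 and Vec 7. Cr1l 3 and Cr1l 4 were the highest and Vec 6 and Vec 7 the lowest, while Vec 5 lay above Cr1l 1 and Cr1l 2, so the groups overlapped. Of the 44 genes, 29 had a mean of at least 1 TPM and were tested with limma on log2(TPM + 1), among 14954 genes. None of the 29 passed an adjusted p of 0.05 (lowest 0.227), where 2 of all genes tested did (0.0134%). Cr1l, the over-expressed gene, did not pass either, with a log2 fold change of 0.62 ± 0.11 (SE; limma adjusted p = 0.119). Missing this threshold therefore does not show that a collagen was unchanged. In bulk tumours, fewer cells of a type and less RNA per cell cannot be told apart.

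**Figure D1:**
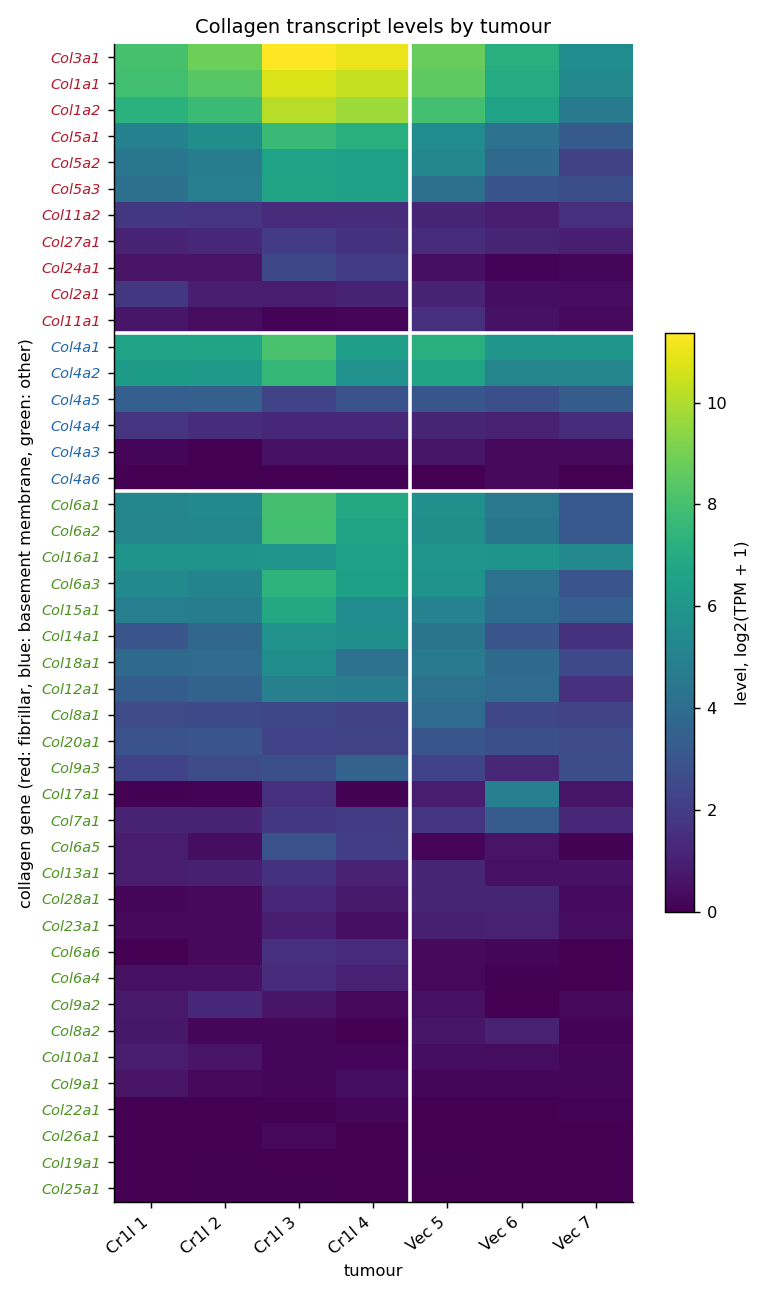
Level of each of the 44 collagen genes in each tumour, as log2(TPM + 1), with Cr1l tumours left of Vec tumours and genes ordered by mean level within the fibrillar, basement membrane and other classes. The abundant fibrillar and type VI chains are brightest in Cr1l 3 and Cr1l 4 and darkest in Vec 7, Col16a1 is almost even, and Col17a1 is bright in Vec 6 alone.

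At an unadjusted p under 0.05, 9 of the 29 collagens (31%) were higher in Cr1l tumours, beside 9.49% of all genes tested, and 0 were lower, beside 6.07%. The 9 were the fibrillar chains Col1a1, Col1a2, Col3a1, Col5a1 and Col5a3, the type VI chains Col6a1, Col6a2 and Col6a3, and Col15a1. Of the 29, only Col24a1 (3.45%) had every Cr1l tumour above every Vec tumour, beside 9.29% of all genes, and none had every Cr1l tumour below, beside 6.67%. The authors' deposited table, a DESeq2 comparison, listed 7 of 38 collagens with an adjusted p (18.4%) as higher below 0.05, beside 4.74% of its genes, and 0 as lower, beside 2.27%. These 7 in the authors' deposited table were Col1a1, Col3a1, Col5a1, Col5a3, Col24a1, Col6a4 and Col6a5. At an unadjusted p under 0.05, the authors' deposited table gave 14 of the 29 as higher (48.3%), beside 13.3% of the 14268 genes in both tables. The limma count of 9 was down to 1, Col5a3, when Cr1l 3, Cr1l 4, Vec 6 or Vec 7 was left out. These fits hold fewer tumours and the share of all genes is not given for them. The fall therefore cannot be read as particular to collagens. Because the mean over all tumours set the filter, 4 of the 29 (Col2a1, Col6a5, Col13a1 and Col24a1) reached it only through Cr1l tumours and 1 (Col17a1) only through Vec tumours.

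Of the 3 classes, the fibrillar chains had the largest median log2 fold change by limma on log2(TPM + 1). All 10 tested fibrillar chains had a positive log2 fold change (Cr1l minus Vec), from 0.31 to 2.69 with a median of 1.89, where 8281 of the 14954 genes tested were positive with a median of 0.05. The filter had a part in this, as Col2a1 and Col24a1 passed it only through Cr1l tumours. Col11a1, which it removed, had a negative difference in mean log2(TPM + 1), -0.45. The sum over all fibrillar chains was 732, 1112, 5871 and 4530 TPM in Cr1l tumours, against 1148, 400 and 131 TPM in Vec tumours. Cr1l 3 and Cr1l 4 were the 2 highest tumours, in either order, in 8 of the 10, beside 19.7% of all genes tested. Without both, the median was 0.96, and without Vec 6 and Vec 7 it was 0.78.

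Type I and type III chains were the most abundant fibrillar transcripts in every tumour. Col3a1, the single chain of type III collagen and the most abundant collagen transcript by its mean over the tumours, stood at 261.30, 454.55, 2624.46 and 2065.17 TPM in Cr1l tumours, against 421.15, 139.17 and 44.52 TPM in Vec tumours. Cr1l 3 and Cr1l 4 lay far above all others, and Vec 5 lay between Cr1l 1 and Cr1l 2. Its means were 1351 ± 1172 TPM (SD, n = 4) in Cr1l tumours and 202 ± 196 TPM (SD, n = 3) in Vec tumours, a log2 fold change of 2.69 ± 0.99 (SE; limma adjusted p = 0.277). An exact two-sided permutation test, with 35 splits of 7 tumours, gave p = 0.114 for Col3a1, where 0.0286 is the smallest it can give. Col1a1, the major chain of type I collagen, had 240.43, 338.54, 1704.93 and 1316.21 TPM in Cr1l tumours and 369.74, 126.66 and 39.34 TPM in Vec tumours. Col1a2, its partner chain, had 153.78, 211.37, 1137.49 and 816.85 TPM in Cr1l tumours and 250.69, 91.68 and 25.71 TPM in Vec tumours. In both, Vec 5 exceeded Cr1l 1 and Cr1l 2, so the groups overlapped, and the highest tumour had 43.3 times the lowest for Col1a1 and 44.2 times for Col1a2. The log2 fold changes were 2.40 ± 0.91 (SE; limma adjusted p = 0.284) for Col1a1 and 2.29 ± 0.92 (SE; limma adjusted p = 0.301) for Col1a2.

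Type V collagen, which joins type I in mixed fibrils and limits their width, followed the same tumours. Col5a1 had 30.46, 48.11, 200.62 and 143.87 TPM in Cr1l tumours and 43.86, 18.54 and 8.35 TPM in Vec tumours. Col5a2 had 20.92, 26.17, 96.08 and 88.97 TPM in Cr1l tumours and 38.79, 14.15 and 3.67 TPM in Vec tumours. Vec 5 lay between Cr1l 1 and Cr1l 2 for Col5a1 and above both for Col5a2. Col5a3, the least widely expressed chain of type V, had 17.33, 27.74, 97.01 and 90.90 TPM in Cr1l tumours, against 17.44, 6.67 and 5.64 TPM in Vec tumours. It came closest of these chains to separating the groups, with only Vec 5 above Cr1l 1, and narrowly. Its log2 fold change was 2.25 ± 0.66 (SE; limma adjusted p = 0.227), the lowest adjusted p of the family, and the exact permutation p was 0.0857. For Col5a1 the log2 fold change was 2.02 ± 0.75 (SE; limma adjusted p = 0.277), and for Col5a2 it was 1.76 ± 0.81 (SE; limma adjusted p = 0.337). In the authors' deposited table the log2 fold changes were 2.55 for Col5a3 (adjusted p = 0.00339), 2.16 for Col5a1 (adjusted p = 0.0317) and 1.62 for Col5a2 (adjusted p = 0.165).

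The other fibrillar chains were low in every tumour. Col24a1, which resembles invertebrate fibrillar collagens, had 0.51, 0.51, 4.51 and 2.88 TPM in Cr1l tumours, against 0.39, 0.08 and 0.13 TPM in Vec tumours. The groups did not overlap, but Cr1l 1 and Cr1l 2 lay just above Vec 5 and the level was near 1 TPM. Its log2 fold change of 1.15 ± 0.53 (SE; limma adjusted p = 0.337) was computed on log2(TPM + 1) and so understates a change at such levels, and the authors' deposited table gave 3.40 (adjusted p = 0.0038). Col2a1, Col11a2 and Col27a1 had log2 fold changes of 0.55, 0.37 and 0.31, with adjusted p of 0.469 to 0.636 by limma. Col11a2, a cartilage chain, had 2.53, 2.41, 1.57 and 1.68 TPM in Cr1l tumours and 1.29, 0.84 and 2.01 TPM in Vec tumours, so it was not highest in Cr1l 3 and Cr1l 4. Col11a1 was not tested at a mean of 0.53 TPM, and its highest value, 1.89 TPM, was in Vec 5.

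**Figure D2:**
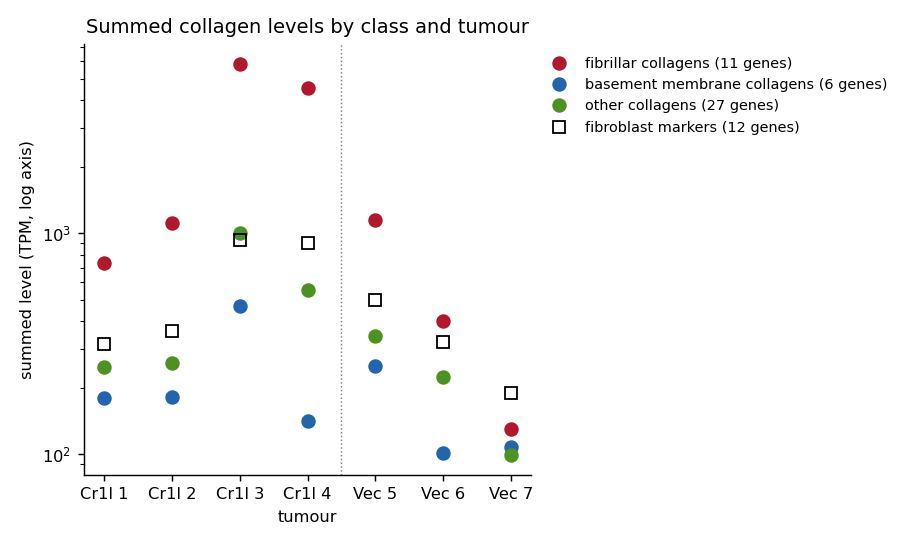
Summed TPM per tumour on a log axis for the fibrillar (11 genes), basement membrane (6 genes) and other (27 genes) collagens and for 12 fibroblast marker genes, Cr1l tumours left of Vec tumours. Fibrillar collagens span 131 to 5871 TPM, basement membrane collagens 101 to 468 TPM, and the fibroblast markers are also highest in Cr1l 3 and Cr1l 4.

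Basement membrane collagens had smaller fold changes and another order of tumours. The 6 type IV chains summed to 180, 181, 468 and 141 TPM in Cr1l tumours, against 250, 101 and 108 TPM in Vec tumours. Cr1l 3 alone stood high, and Cr1l 4, with the second highest fibrillar sum, lay below Vec 5. Of the 4 tested chains, 3 had a positive log2 fold change and 1 a negative, from -0.03 to 0.75 with a median of 0.41, and none had an unadjusted p under 0.05. Without Vec 6 and Vec 7 the median was -0.12.

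Col4a1 and Col4a2, which form the type IV network of most tissues, carried nearly all of this RNA. Col4a1 had 96.51, 99.56, 273.38 and 80.49 TPM in Cr1l tumours and 143.92, 59.08 and 61.53 TPM in Vec tumours. Col4a2 had 71.24, 69.71, 188.97 and 51.97 TPM in Cr1l tumours and 97.55, 34.95 and 35.24 TPM in Vec tumours. For both genes the order of tumours was Cr1l 3, then Vec 5, and Vec 6 and Vec 7 were the lowest. Log2 fold changes were 0.58 ± 0.48 (SE; limma adjusted p = 0.558) for Col4a1 and 0.75 ± 0.51 (SE; limma adjusted p = 0.483) for Col4a2, and without Cr1l 3 they were 0.18 and 0.36. These genes lie head to head on chromosome 8, and their RefSeq starts in GRCm38.p6 overlap by 22 bases, so that reads from the overlap could not be given to a strand in these non-directional libraries. Markers of endothelial cells stood at 118, 103, 400 and 83.3 TPM in Cr1l tumours and 137, 83.5 and 35.8 TPM in Vec tumours, with Cr1l 3 highest, Vec 5 next and none of the 8 genes at 0 in all tumours. Their part in the type IV levels was not tested.

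The chains of more specialised basement membranes were low. Col4a5, an X-linked chain of kidney and some other basement membranes, had 9.48, 10.22, 3.97 and 6.46 TPM in Cr1l tumours and 7.20, 5.75 and 9.30 TPM in Vec tumours. It was lowest in Cr1l 3, where Col4a1 was highest, and its log2 fold change was -0.03 (95% interval -0.77 to 0.71). Col4a4 lay between 1.03 and 2.39 TPM, and Col4a3 and Col4a6 were below 1 TPM in every tumour.

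Of the 15 other collagens tested, 11 had a positive log2 fold change and 4 a negative one, where 8281 of the 14954 genes tested were positive. They ran from -1.68 to 1.90, with a median of 0.76. Without Vec 6 and Vec 7 the median was 0.13. Among these collagens, the 3 main type VI chains had the largest positive fold changes by limma on log2(TPM + 1). Col6a1, Col6a2 and Col6a3 join into the beaded microfilaments around cells. Col6a1 had 36.50, 41.74, 254.58 and 114.90 TPM in Cr1l tumours and 51.67, 22.54 and 7.84 TPM in Vec tumours. Col6a2 had 35.16, 37.36, 244.35 and 97.65 TPM in Cr1l tumours and 47.59, 20.19 and 7.72 TPM in Vec tumours. Col6a3 had 40.36, 34.30, 161.38 and 86.23 TPM in Cr1l tumours and 53.68, 18.50 and 7.05 TPM in Vec tumours. The same order held for all 3 chains at the top, with Cr1l 3 over Cr1l 4 over Vec 5, and Vec 7 was the lowest. Their log2 fold changes were 1.90 (SE 0.80), 1.87 (SE 0.79) and 1.72 (SE 0.73), with adjusted p of 0.314 to 0.316 by limma. Col6a5, a chain that can stand in for Col6a3, had 0.82, 0.32, 6.37 and 3.32 TPM in Cr1l tumours and 0.15, 0.50 and 0.06 TPM in Vec tumours. The related Col6a4 was not tested at a mean of 0.55 TPM, and had 0.43, 0.48, 1.66 and 1.05 TPM in Cr1l tumours, against 0.19, 0.05 and 0.00 TPM in Vec tumours. In the authors' deposited table, Col6a5 and Col6a4 had log2 fold changes of 3.51 (adjusted p = 0.0112) and 3.41 (adjusted p = 0.00375), on mean normalized counts of 116 and 37.4.

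Collagens that sit on fibrils, the FACIT group, held chains that varied widely and chains that hardly varied. Col14a1, which binds fibrils of skin and tendon, had 7.03, 12.45, 52.28 and 49.02 TPM in Cr1l tumours and 19.88, 7.01 and 2.05 TPM in Vec tumours. Col12a1, its close relative, had 9.23, 10.74, 29.59 and 25.89 TPM in Cr1l tumours and 18.51, 14.56 and 1.92 TPM in Vec tumours. Both were highest in Cr1l 3 and Cr1l 4 and lowest in Vec 7, yet Vec 5 exceeded Cr1l 1 and Cr1l 2. The log2 fold changes were 1.54 ± 0.85 (SE; limma adjusted p = 0.402) for Col14a1 and 0.88 ± 0.71 (SE; limma adjusted p = 0.544) for Col12a1, and without Vec 7 they were 0.84 and 0.03. Col16a1, by contrast, had 57.24, 57.23, 59.10 and 88.25 TPM in Cr1l tumours and 59.48, 58.15 and 40.12 TPM in Vec tumours. Its highest tumour held 2.20 times its lowest, where Col3a1 spanned 59.0 times, and its log2 fold change was 0.31 (95% interval -0.19 to 0.80, adjusted p = 0.488 by limma). Outside the fibrillar and type IV classes it was the most abundant chain in Cr1l 1, Cr1l 2 and every Vec tumour, and in Vec 7 it exceeded Col1a1. Col20a1 ranged from 3.87 to 7.26 TPM and Col9a3 from 1.30 to 10.98 TPM, with log2 fold changes of -0.20 and 0.76.

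Col15a1 and Col18a1 encode the multiplexins of basement membrane zones, and the end fragment of Col18a1 is endostatin. Col15a1 had 27.66, 26.62, 116.42 and 44.03 TPM in Cr1l tumours and 31.65, 15.20 and 9.52 TPM in Vec tumours. Col18a1 had 14.44, 14.92, 46.39 and 17.70 TPM in Cr1l tumours and 24.87, 14.10 and 4.73 TPM in Vec tumours. Cr1l 3 stood alone at the top for both, as for type IV collagen, and Vec 7 was the lowest. The log2 fold changes were 1.35 ± 0.57 (SE; limma adjusted p = 0.314) for Col15a1 and 0.72 ± 0.57 (SE; limma adjusted p = 0.540) for Col18a1. For Col18a1 it was 0.13 without Vec 7 and 0.35 without Cr1l 3.

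A few chains were highest in a Vec tumour. Col17a1, a transmembrane collagen that ties basal keratinocytes to the basement membrane, had 0.05, 0.09, 2.00 and 0.04 TPM in Cr1l tumours, against 0.83, 28.67 and 0.56 TPM in Vec tumours. Col7a1, the anchoring fibril chain of skin, had 1.21, 1.15, 2.61 and 2.87 TPM in Cr1l tumours, against 2.25, 8.65 and 1.37 TPM in Vec tumours. Both were highest in Vec 6, and the 6 keratinocyte markers summed to 0.98, 0.41, 45.0 and 2.27 TPM in Cr1l tumours and 48.3, 848 and 7.64 TPM in Vec tumours, with none at 0 in all tumours. Their part in these levels was not tested. Col8a1, a short-chain collagen of vessel walls, had 5.11, 4.83, 4.47 and 3.75 TPM in Cr1l tumours, against 14.50, 4.37 and 3.99 TPM in Vec tumours, and was high in Vec 5 alone. Log2 fold changes were -1.68 for Col17a1, -0.56 for Col7a1 and -0.44 for Col8a1, with adjusted p of 0.435, 0.591 and 0.594 by limma. Without Vec 6, Col17a1 averaged under 1 TPM and was not tested, and Col7a1 had a log2 fold change of 0.04. Without Vec 5, that of Col8a1 was 0.09. Without Vec 6 and Vec 7, the log2 fold change of Col8a1 was -1.49.

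The remaining 15 members were below the filter, 1 fibrillar, 2 type IV and 12 other, and none exceeded 1.89 TPM in any tumour. Col2a1 and Col13a1 lay just inside it at means of 1.02 and 1.03 TPM, and Col28a1 and Col23a1 just outside at 0.756 and 0.587 TPM. In 8 members no tumour reached 1 TPM.

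**Figure D3:**
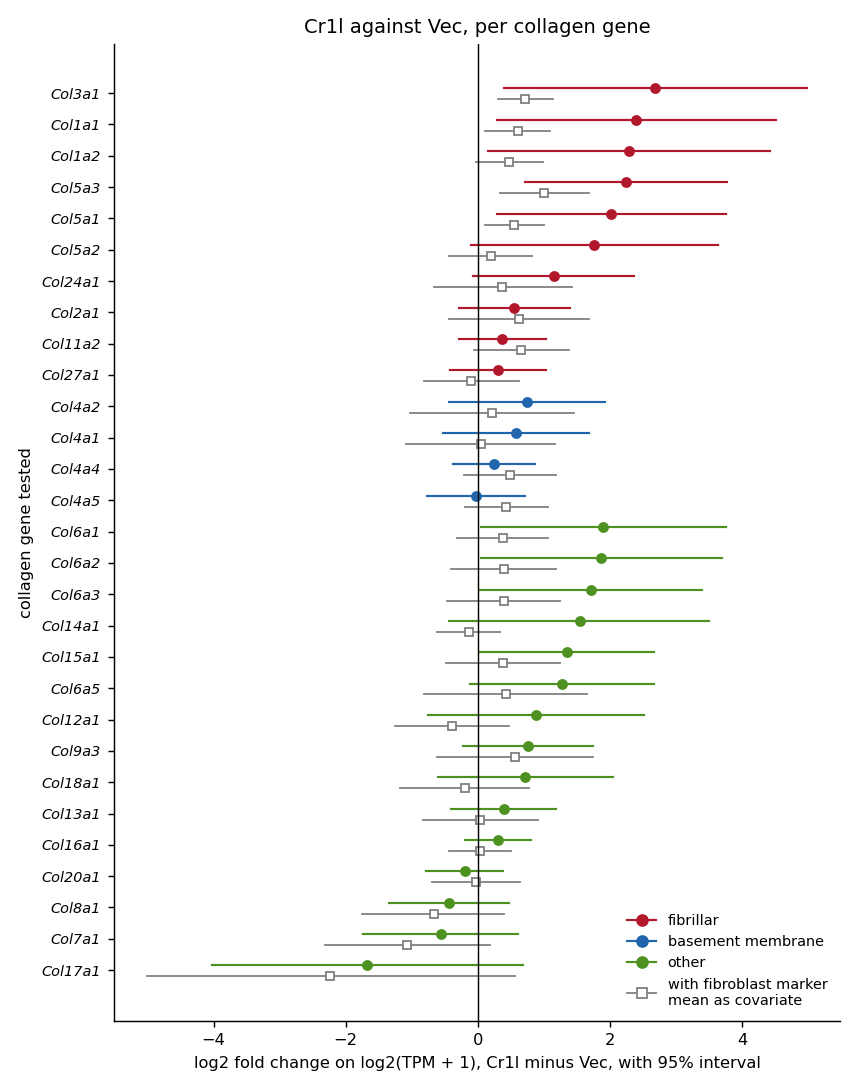
Log2 fold change on log2(TPM + 1), Cr1l minus Vec, with its 95% interval from limma for the 29 collagens tested, coloured by class, and in grey the same from a fit with the mean of 12 fibroblast markers as a covariate. The abundant fibrillar and type VI chains lie furthest to the right, and with the covariate the fibrillar median is 0.58 in place of 1.89.

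Collagen RNA and fibroblast markers were high in the same tumours. The 12 fibroblast markers summed to 315, 363, 935 and 906 TPM in Cr1l tumours, against 502, 322 and 190 TPM in Vec tumours, and none was at 0 in all tumours. All 12 had a positive log2 fold change, from 0.21 to 2.12 with a median of 1.27, and 0 passed the adjusted threshold. Fbn1, the microfibril protein fibrillin, had 14.18, 22.67, 96.70 and 79.35 TPM in Cr1l tumours and 30.32, 7.44 and 2.19 TPM in Vec tumours. Postn, a matrix protein of activated fibroblasts, followed in part, with 45.64, 47.06, 162.13 and 91.44 TPM in Cr1l tumours and 137.56, 112.10 and 17.15 TPM in Vec tumours. It was highest in Cr1l 3 and lowest in Vec 7, but Vec 5 and Vec 6 exceeded Cr1l 4. Fbln1 did not follow, with 138.85, 134.10, 117.83 and 136.26 TPM in Cr1l tumours and 137.49, 80.57 and 106.23 TPM in Vec tumours. Pdpn was highest in Cr1l 4 (81.16 TPM), but Vec 5 (58.18 TPM) exceeded Cr1l 3 (56.99 TPM). In the remaining markers Cr1l 3 and Cr1l 4 were the highest tumours. A fit with the mean of the 12 markers as a covariate gave a median log2 fold change of 0.58 for fibrillar, 0.32 for type IV and 0.04 for other collagens. In it, 4 of the 29 collagens (13.8%) were higher at an unadjusted p under 0.05, beside 8.19% of all genes tested. They were Col3a1 (0.72, 95% interval 0.30 to 1.14), Col5a3 (1.01, 95% interval 0.34 to 1.68), Col1a1 (0.61, 95% interval 0.11 to 1.10) and Col5a1 (0.55, 95% interval 0.11 to 1.00). The markers themselves differ between the groups on average, so how far fibroblast content enters the collagen levels cannot be told apart from the group in this design.

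The order of the tumours was shared across the family. Cr1l 3 and Cr1l 4 were the 2 highest tumours, in either order, in 16 of the 29 tested collagens (55.2%), beside 19.7% of all genes tested. Vec 7 was the lowest tumour in 17 (58.6%), beside 15.4%. Vec 5 exceeded Cr1l 1 in 23 (79.3%), beside 51% of all genes, and in 16 of the 16 with a mean of at least 10 TPM. By class, the pair led in 8 of 10 fibrillar, 0 of 4 type IV and 8 of 15 other chains.

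The make-up of the collagen RNA differed between tumours. Col1a1, Col1a2 and Col3a1 together took 56.5%, 64.7%, 74.5% and 80.3% of the summed collagen TPM in Cr1l tumours, against 59.9%, 49.3% and 32.4% in Vec tumours. Type IV chains took 15.5%, 11.7%, 6.38% and 2.69% in Cr1l tumours, against 14.4%, 14.0% and 32.0% in Vec tumours. The groups overlapped in both shares, and the tumours with least collagen, Vec 6 and Vec 7, had the smallest share of types I and III. Shares are parts of a sum, so a larger share of 1 chain lowers the others.

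Ratios between collagen chains were steadier than the levels in the 6 pairs examined. Of these pairs, Col3a1 and Col1a1 belong to different collagens. No wider set of such pairs was examined, so the steadiness cannot be called particular to chains that assemble together. The ratio of Col1a1 to Col1a2 was 1.56, 1.60, 1.50 and 1.61 in Cr1l tumours and 1.47, 1.38 and 1.53 in Vec tumours, while the levels themselves spanned 43.3 and 44.2 times. Type I collagen is mostly built of a pair of Col1a1 chains and a single Col1a2 chain. Col6a1 to Col6a2 lay between 1.02 and 1.18 and Col4a1 to Col4a2 between 1.35 and 1.75 over the 7 tumours. Col3a1 to Col1a1 was 1.09, 1.34, 1.54 and 1.57 in Cr1l tumours and 1.14, 1.10 and 1.13 in Vec tumours, so that Cr1l 1 lay below all Vec tumours and the other Cr1l tumours above them. Col5a1 to Col5a2 was the least even, from 1.13 in Vec 5 to 2.28 in Vec 7. In none of the 6 ratios were the groups apart.

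**Figure D4:**
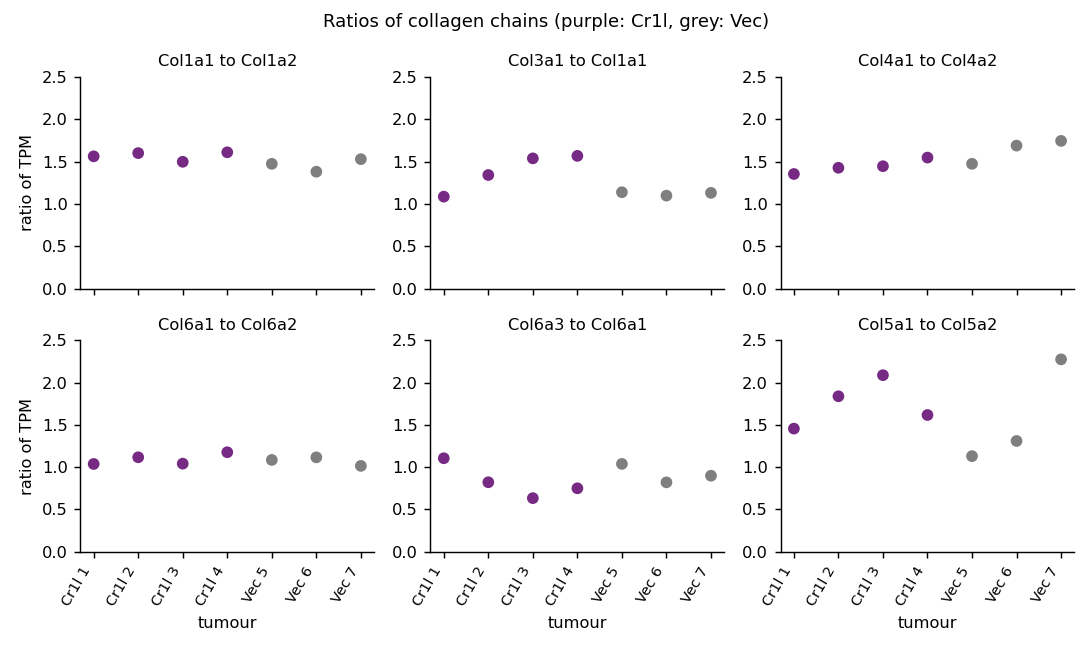
Ratio of TPM between collagen chains in each tumour, for 6 pairs, Cr1l tumours in purple left of Vec tumours in grey, on axes that start at 0. Col1a1 to Col1a2 (1.38 to 1.61) and Col6a1 to Col6a2 (1.02 to 1.18) are nearly even over tumours, and Col5a1 to Col5a2 ranges from 1.13 to 2.28.

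The enzymes that modify and fold collagen in the endoplasmic reticulum had smaller fold changes than the fibrillar chains. Of 19 tested genes in this list, 17 had a positive log2 fold change, with a median of 0.33, and 0 passed the adjusted threshold. In 4 of them (Colgalt1, Plod2, P4ha1 and P4ha2) every Cr1l tumour was above every Vec tumour, beside 9.29% of all genes. The same 4 were higher at an unadjusted p under 0.05, beside 9.49% of all genes tested. Of all 14954 genes tested, 8281 had a positive log2 fold change. These shares are the background for the lists below too. Colgalt1, which puts galactose on hydroxylysine, had 63.55, 68.07, 102.50 and 99.90 TPM in Cr1l tumours and 45.52, 29.27 and 40.63 TPM in Vec tumours, a log2 fold change of 1.09 ± 0.23 (SE; limma adjusted p = 0.146). Plod2, a lysyl hydroxylase of the chain ends, had 103.10, 126.03, 86.36 and 122.67 TPM in Cr1l tumours and 65.43, 49.58 and 72.68 TPM in Vec tumours, a log2 fold change of 0.80 ± 0.19 (SE; limma adjusted p = 0.176). Unlike the abundant fibrillar chains, Plod2 was lower in Cr1l 3 than in any other Cr1l tumour. The prolyl hydroxylase subunits P4ha1 and P4ha2 had log2 fold changes of 0.54 and 0.81, and the list summed to 2219, 2357, 2406 and 2664 TPM in Cr1l tumours, against 2169, 1636 and 2050 TPM in Vec tumours. Serpinh1, the collagen chaperone Hsp47, was named after its values were seen and had 524.17, 523.99, 550.67 and 492.75 TPM in Cr1l tumours and 535.81, 289.38 and 458.53 TPM in Vec tumours, with Vec 6 the lowest and the Cr1l tumours nearly even.

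Several genes acting outside the cell were highest in Cr1l 3 and Cr1l 4, the tumours with most fibrillar collagen. All 5 crosslinking enzymes had a positive log2 fold change (median 1.59). Loxl2, a lysyl oxidase that links collagen chains, had 28.94, 41.85, 63.76 and 82.12 TPM in Cr1l tumours and 26.24, 10.26 and 13.81 TPM in Vec tumours, with no overlap and a log2 fold change of 1.63 ± 0.41 (SE; limma adjusted p = 0.198). Lox, the founding member, had 17.83, 28.14, 85.96 and 130.67 TPM in Cr1l tumours and 34.62, 13.63 and 4.94 TPM in Vec tumours, and the groups overlapped. Of the propeptide-processing genes, 4 of 5 tested were positive (median 1.08), with Adamts14, an N-propeptidase, at 1.38 ± 0.52 (SE; limma adjusted p = 0.281). Pcolce, an enhancer of C-propeptide removal, was the exception, at 290 ± 31.6 TPM in Cr1l tumours and 350 ± 97.6 TPM in Vec tumours (SD, n = 4 and n = 3). Small leucine-rich proteoglycans, which coat fibrils, were positive in 6 of 7, led by Lum (1.67) and Dcn (1.62) with adjusted p of 0.380 and 0.408 by limma. None of the 7 had an unadjusted p under 0.05.

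Receptors and enzymes that meet finished collagen were mixed. Mrc2, the receptor that takes up collagen fragments, had 5.45, 6.58, 23.24 and 22.00 TPM in Cr1l tumours and 8.48, 2.66 and 0.76 TPM in Vec tumours, a log2 fold change of 1.71 ± 0.69 (SE; limma adjusted p = 0.303). The kinase Ddr2, a receptor for fibrillar collagen, had 92.07, 91.24, 78.31 and 88.35 TPM in Cr1l tumours and 77.24, 47.92 and 73.29 TPM in Vec tumours. Every Cr1l tumour was above every Vec tumour for Ddr2, with a log2 fold change of 0.43 ± 0.18 (SE; limma adjusted p = 0.318). Of 9 receptors tested, 7 were positive and 3 were higher at an unadjusted p under 0.05, beside 9.49% of all genes tested. All 5 tested cleaving enzymes were positive (median 0.94). Mmp9, a gelatinase that also degrades type IV collagen, had 3.13, 7.23, 11.57 and 11.57 TPM in Cr1l tumours and 2.40, 2.64 and 0.77 TPM in Vec tumours, without overlap and with a log2 fold change of 1.61 (adjusted p = 0.225 by limma). Among partners of type IV collagen, 9 of 11 were positive (median 0.57) and 6 were higher at an unadjusted p under 0.05, beside the same 9.49%. Lama4, a laminin chain of vessels, had 31.27, 31.85, 39.27 and 35.89 TPM in Cr1l tumours and 29.11, 20.11 and 18.18 TPM in Vec tumours, a log2 fold change of 0.62 ± 0.19 (SE; limma adjusted p = 0.234). Lamb1, another laminin chain, had a log2 fold change of 1.81 ± 0.62 (SE; limma adjusted p = 0.259) with overlapping groups. In none of these 7 lists did a gene pass the adjusted threshold. Without Vec 6 and Vec 7, the medians of the lists ran from 0.10 (modification) to 0.71 (cleaving enzymes). Without Cr1l 3 and Cr1l 4, 4 modification genes and 1 crosslinking gene were higher at an unadjusted p under 0.05. The count was 0 in each other list, receptors and partners of type IV collagen included. The share of all genes is not given for that fit, so these counts have no background. Counts are not given without Vec 6 and Vec 7, where Vec 5 is the lone vector tumour. Both settings were added for these lists after seeing the data.

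**Figure D5:**
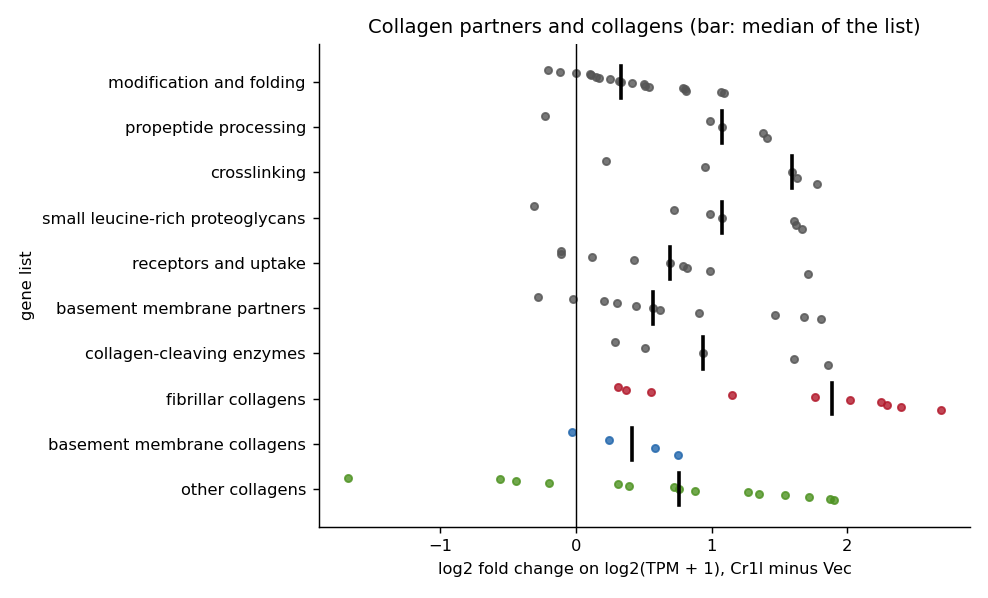
Log2 fold change on log2(TPM + 1), Cr1l minus Vec, of each tested gene in 7 lists of collagen partners and in the 3 collagen classes, with a bar at each median. The medians run from 0.33 (modification and folding) to 1.89 (fibrillar collagens), and no gene shown passed the adjusted threshold.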

How the data were processed

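Poly-A RNA of 7 tumours was sequenced by the authors from libraries that keep no strand, per the labels' protocols. The authors used RSEM, DESeq2 and the mm39 build, per the submitters' processing notes; the sources used here name no version, aligner, annotation or read number. In the expression table the authors deposited log2(TPM + 1) for each gene symbol, and the logarithm was undone to give TPM; 99.9% of them have 2 decimals within 0.0001 TPM, and TPM keeps no depth. Their deposited comparison lists for each Ensembl identifier, per the file headers, a log2 fold change, a p-value before and after adjustment, and the normalized count averaged over tumours, a signal on the count scale. Its numerator is not named and was read as Cr1l, because Cr1l itself is positive there and 94.4% of 14268 genes have the sign found here. Of its 28369 identifiers 27182 matched a symbol, all 44 collagens among them, in a GRCm38 name table used for names alone.

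The 14954 genes averaging 1 TPM or more were tested with limma 3.58.1 in R 4.3.3 on log2(TPM + 1), with group as the term and a trend on mean expression, two-sided, Benjamini-Hochberg adjusted over all genes, threshold 0.05. Single genes also had an exact permutation test over 35 splits. Collagens with a mean of at least 10 TPM or an unadjusted p under 0.05 (16 genes) are given by tumour. Per partner list, genes were picked from the 4 with the smallest p, not always in that order and not all by tumour. Loxl4 and Itga2, each ranked 2 in its list, were passed over. Others, such as Col24a1, Col17a1, Col4a5, Serpinh1, Pcolce, Fbn1 and Postn, were chosen after their values were seen. Classes, lists and members were chosen with earlier results of these data known. Promoters come from RefSeq (GRCm38.p6), with 35 of 44 collagens matched, and coding sequences from GENCODE M21; their coordinates are not those of the authors' build. Plots were made in Python 3.11.15 with matplotlib 3.10.9. The repertoire file was not used.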

Additional observations from a re-analysis of the deposited data

Results flagged for a closer look

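In the 4 Cr1l tumours, 25 reported levels were examined in TPM for a tumour far from the other 3, and 5 were found. The measure was Dixon's ratio, the gap to the nearest tumour over the range of the 4. For a single level, chance gives about 1 in 20 if values are normally distributed, which TPM need not be. The limma tests used log2(TPM + 1), and whether the 5 hold on that scale was not tested. The levels are not independent, as Col4a1 and Col4a2 make up most of the basement membrane sum. The number found is therefore no measure of an excess over chance. Cr1l 3 stood apart for Col4a1 (273 TPM), Col4a2 (189 TPM), Col18a1 (46.4 TPM) and the summed basement membrane collagens (468 TPM), and the endothelial markers were also highest there, at 400 TPM. Cr1l 4 stood apart for Col16a1 (88.2 TPM), the most even of the abundant chains elsewhere. The Vec group, with 3 tumours, was too small for this examination.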

How the results depend on the processing

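No collagen passed the adjusted threshold under any limma setting tried, leaving out each tumour included (0 to 0), while the authors' deposited comparison called 6 of the 29. The count higher at an unadjusted p under 0.05 was 9 as reported. It was 5 with array weights, an estimate that stopped short of its convergence tolerance. It was also 5 with median-of-ratios scaling or without a trend, and 4 with the fibroblast covariate. It was 11 with a pseudocount of 0.1 TPM, 9 of 20 with a filter at a mean of 5 TPM and 6 of 44 without a filter. The authors' deposited comparison gave 14. Without Cr1l 3 and Cr1l 4 together, a setting added after seeing the data, the count was 1. With each tumour left out in turn it was 1 to 13. No count is given without Vec 6 and Vec 7, where Vec 5 is the lone vector tumour. The share of all genes is given above for the reported fit, the covariate fit and the authors' comparison alone. The counts of the other settings have no background, so a fall in them cannot be read as particular to collagens. The fibrillar median of 1.89 was 0.58 with the covariate, 0.78 without Vec 6 and Vec 7 and 0.96 without Cr1l 3 and Cr1l 4, and the median of other collagens was 0.04 with the covariate. The basement membrane median turned to -0.12 without Vec 6 and Vec 7, where Col4a1 was -0.25, Col4a2 -0.22, Col18a1 -0.26 and Col12a1 -0.14. With the covariate Col12a1 was -0.39, Col14a1 -0.14 and Col18a1 -0.20. The cause was not tested. Where Vec 5 is the lone vector tumour, its spread is taken to equal that among Cr1l tumours. Scaling moved the median of all genes by -0.0553. No paired analysis was possible because the tumours are numbered 1 to 7 with no number shared between groups.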
